A study of Mus musculus with 24 samples.

Results

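The hairpins mmu-mir-3066, mmu-mir-6481 and mmu-mir-489 are 3 of the 1186 miRNA precursors counted in small RNA libraries from mouse liver, cultured primary hepatocytes and exosomes. They were chosen by their high counts in the acetaminophen-treated hepatocytes, together with mmu-miR-489-3p, 1 of 1915 mature miRNAs counted in the same libraries. All 3 hairpins were found in the table. The counts of the hairpins and of miR-489-3p in the treated hepatocytes are therefore a description of how they were chosen. Liver and exosome columns and the other mature arms took no part in the choice.

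The libraries came from 4 materials, which were serum exosomes, exosomes from hepatocyte culture medium, the cultured primary hepatocytes themselves, and liver. Each material was sampled as an untreated control, after acetaminophen, and after both acetaminophen and G-CSF (granulocyte colony-stimulating factor). Serum and liver came from mice given 500 mg/kg acetaminophen, with or without 100 µg/kg G-CSF, and the hepatocytes and their medium from cultures given 20 mM acetaminophen, with or without 1 µg/ml G-CSF. No group received G-CSF alone. Of strain, sex, age, time after dosing and number of mice or cultures, the labels at hand state none. Of 24 samples, run on the Ion Torrent PGM and Proton instruments, the tables hold 12 columns, 1 for each condition, so a comparison of 2 columns compares those libraries and has no replicate check.

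A miRNA gene is transcribed into a longer RNA that folds into a hairpin, from which Drosha and Dicer cut a short duplex with a 5p and a 3p arm. The arm kept in an Argonaute protein pairs with target messages mainly through its seed, bases 2 to 8. In mouse muscle, miR-489 is known for holding satellite cells, the muscle stem cells, in quiescence. No role is attributed here to miR-3066 or miR-6481. Acetaminophen at high doses damages hepatocytes through a reactive metabolite, and G-CSF mobilises granulocytes.

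The 3 hairpins lie in introns of unrelated genes (RefSeq sequences, GRCm38.p6, matched for 3 of 3; host genes from GENCODE M21, the same build). The build behind the counts was not given in the sources used here. mir-3066 lies at chr12:17355392-17355474 on the plus strand, in the same direction as its host Nol10, which encodes a nucleolar protein. mir-6481 lies at chr3:99199344-99199453 on the minus strand, against the direction of its host Wars2, the mitochondrial tryptophanyl-tRNA synthetase. mir-489 lies at chr6:3721897-3722003 on the minus strand, in the direction of its host Calcr, the calcitonin receptor gene, and 511 bases from the hairpin mir-653. No annotated exon of another gene overlapped any of them. The precursors are shown because the hairpin counts and the mature counts parted ways, with the annotated mature arms in capitals.
mmu-mir-3066: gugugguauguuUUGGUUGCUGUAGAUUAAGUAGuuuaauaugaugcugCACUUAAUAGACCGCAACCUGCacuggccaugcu
mmu-mir-489: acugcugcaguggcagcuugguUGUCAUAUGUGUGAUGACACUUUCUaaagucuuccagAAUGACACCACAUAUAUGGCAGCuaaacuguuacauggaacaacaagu

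The mir-6481 hairpin differed from the others in its sequence. It shares an exact run of 22 bases with mt-Tf (chrM:1-68, plus strand), the gene of the mitochondrial tRNA for phenylalanine. In the following lines the capitals mark that run, bases 67 to 88 of the hairpin and 27 to 48 of the tRNA, with the GENCODE tRNA sequence written in RNA letters.
mmu-mir-6481: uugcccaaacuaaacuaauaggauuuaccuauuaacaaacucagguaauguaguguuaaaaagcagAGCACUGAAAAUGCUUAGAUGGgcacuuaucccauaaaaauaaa
mt-Tf: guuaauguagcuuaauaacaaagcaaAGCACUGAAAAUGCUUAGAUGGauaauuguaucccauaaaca

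The whole 19-base mature miR-6481 falls inside the run. A local alignment carried the likeness beyond it, with 53 identical bases in 64 alignment columns (82.8%) between hairpin bases 46 to 104 and tRNA bases 3 to 66. Of 944 hairpins of the table with a RefSeq sequence, 1 shared a run of 20 bases with any of the 37 mitochondrial transcripts of GENCODE, and that 1 was mir-6481. Whether counts of this entry came from the hairpin or from the tRNA cannot be told apart in these tables. mir-3066 shared no run of 20 bases with another annotated transcript, and mir-489 shared 21 bases with 1, Sash3, in the antisense direction.

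The mature arms are shown with their seeds in capitals. 
mmu-miR-489-3p: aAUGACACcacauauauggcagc
mmu-miR-489-5p: uGUCAUAUgugugaugacacuuucu
mmu-miR-3066-5p: uUGGUUGCuguagauuaaguag
mmu-miR-3066-3p: cACUUAAUagaccgcaaccugc
mmu-miR-6481: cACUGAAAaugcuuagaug

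The 5 arms have 5 different seeds. Among 1679 RefSeq mature miRNAs, miR-425-5p alone carried the seed of miR-489-3p, and the seeds of the other arms occurred once each.

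Depth set what could be seen. Hairpin totals were 111316 to 1307523 counts in the 6 hepatocyte and liver columns, and mature totals were 4450 to 49330. Treated exosome columns held 167 to 4026 hairpin counts. The liver column with acetaminophen stood apart, with 5.65 hairpin counts for each mature count against 25.1 to 33.7 in the other 5 columns of hepatocytes and liver. The hepatocyte marker mir-122 took 3.10% to 15.6% of the hairpin counts in those 6 columns. Intervals cover counting error only, and fewer cells of a type cannot be told apart from less RNA per cell.

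mir-3066 had 3 counts in untreated hepatocytes, 2096 with acetaminophen and 1268 with acetaminophen plus G-CSF. In liver it had 20, 201 and 25 counts in the same order. The 2 treated hepatocyte columns and the acetaminophen liver column were high, and the other 3 were near the bottom of the scale. Per 100000 hairpin counts, a scale that allows for depth, these levels were 0.358 (95% Wilson interval 0.122 to 1.05), 1166 (1117 to 1217) and 910 (861 to 961) in hepatocytes. Liver columns stood at 1.53 (0.990 to 2.36), 181 (157 to 207) and 2.28 (1.55 to 3.37). The intervals of the 3 lowest columns overlapped from one to the next, and those of the 3 highest did not.

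mir-6481 had 2332, 10681 and 5904.75 counts in hepatocytes (control, acetaminophen, acetaminophen plus G-CSF) and 3317.5, 997 and 957 in liver. Unlike mir-3066 it was plentiful without the drug, at 278 (267 to 290) per 100000 in untreated hepatocytes and 254 (245 to 263) in untreated liver. Hepatocytes reached 5942 (5834 to 6052) after the drug alone and 4237 (4133 to 4344) after both agents. Liver was at 896 (842 to 953) after the drug alone and at 87.3 (82.0 to 93.0) after both agents, the lowest of the 6 columns. No interval overlapped its neighbour in that order.

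mir-489 had 61.5, 486.5 and 68 counts in hepatocytes and 151.7, 6 and 57 in liver. Its level per 100000 was 7.33 (5.77 to 9.48) in untreated hepatocytes, 271 (247 to 295) after the drug alone and 48.8 (38.5 to 61.8) after both agents. Liver levels were 11.6 (9.92 to 13.6), 5.39 (2.47 to 11.8) and 5.20 (4.02 to 6.74). Only the treated hepatocytes were high among the 6 columns, and the acetaminophen liver column, where the other hairpins were raised, was not. The untreated hepatocytes and both treated livers had overlapping intervals from one to the next.

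**Figure D1:**
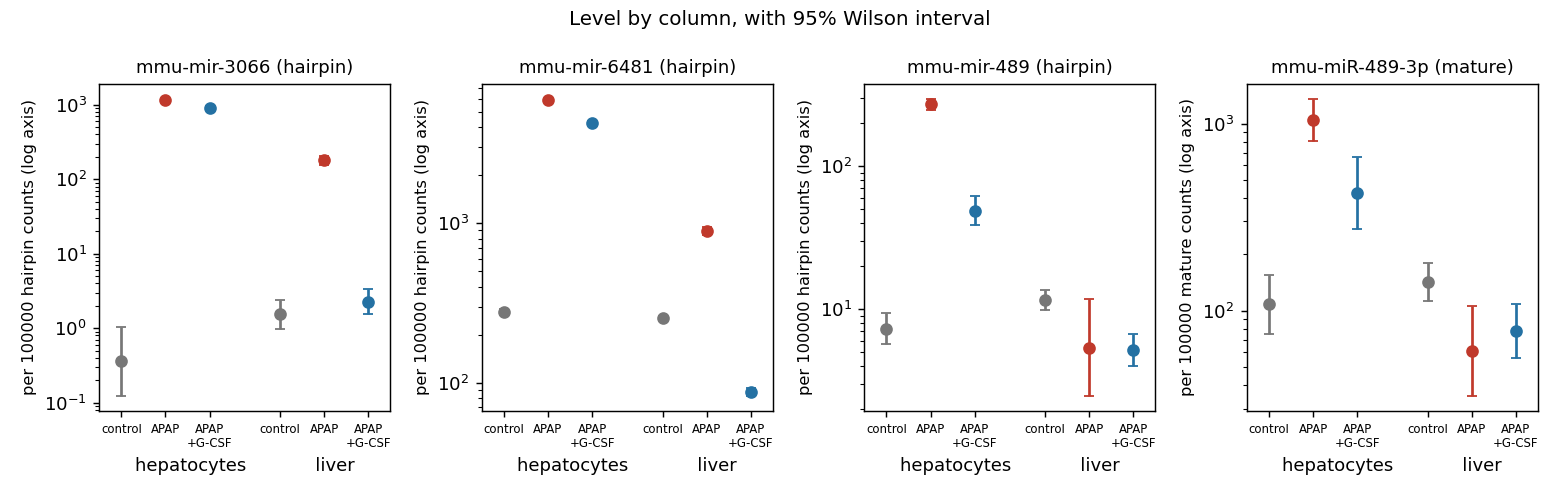
Level per 100000 counts of the same table (log axis) of the 3 hairpins and of mature miR-489-3p in each hepatocyte and liver column, with 95% Wilson intervals; grey is control, red acetaminophen (APAP) and blue acetaminophen plus G-CSF. mir-3066 spans 0.358 to 1166 over the columns, and mir-489 is high in treated hepatocytes but not in treated liver.

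Differences between columns were taken after scaling each material by trimmed mean of M values (TMM) factors. A hairpin was called higher or lower when at least 1 of the 2 columns held 10 counts, the scaled counts differed at least 2-fold, and the exact 95% interval of the ratio left out equality. All 3 hairpins were measured in all 6 comparisons.

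In hepatocytes, acetaminophen against control is the contrast that the choice of the hairpins used, and its values are given without a test. mir-3066 stood at 2664-fold (exact 95% interval 910 to 12928), the largest fold of the 307 hairpins measured, followed by mir-615 and mir-1224. The wide interval comes from the 3 counts in control. mir-489 was 29.9-fold higher (22.9 to 39.6) and ranked 21, and mir-6481 was 17.5-fold higher (16.7 to 18.3) and ranked 37. All 3 passed the call rule as higher, which their choice favoured. Of all hairpins measured, 30.6% were called higher and 31.3% lower.

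Hepatocytes given acetaminophen plus G-CSF were compared with the same untreated column, so that result shares its control. mir-3066 was 2275-fold higher (777 to 11044), again the first of 293, mir-6481 13.6-fold higher (13.0 to 14.3) and mir-489 5.90-fold higher (4.12 to 8.47). Called higher were 3 of 3, beside 27.3% of all measured hairpins (31.7% were called lower). These hepatocytes also received acetaminophen, so the choice may have favoured these calls, and the values are a description. Set against acetaminophen alone, mir-489 was 5.06-fold lower with G-CSF added (3.92 to 6.63) and ranked 225 of 235. The ratio of acetaminophen alone to both agents was 1.17 (1.09 to 1.26) for mir-3066 and 1.28 (1.24 to 1.32) for mir-6481, both under the 2-fold limit. Of the 3, 1 was called lower in that comparison, where 14% of the measured hairpins were (8.51% were called higher). Its reference is the column whose high counts entered the choice, which favours lower values, so these ratios are also a description.

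In liver, with acetaminophen, mir-3066 was 105-fold higher than in control liver (66.4 to 176), the third of 439 hairpins after mir-1224 and mir-217. mir-6481 was 3.15-fold higher (2.93 to 3.38) and ranked 53. mir-489 was 2.42-fold lower (1.09 to 6.69) and ranked 364, on 6 counts in the treated column. These are 2 called higher against a background of 16.9% of hairpins, and 1 called lower against 18.9%. The acetaminophen liver column is the one with few hairpin counts per mature count. With library sizes taken from the mature table, which moved all hairpin folds of the comparison by -1.90 log2, mir-3066 stayed higher (log2 4.81 against 6.72), mir-6481 turned to -0.25 and was not called, and mir-489 went from -1.27 to -3.18. Using column totals, mir-489 was at -1.11 and not called, because its interval took in equality.

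**Figure D2:**
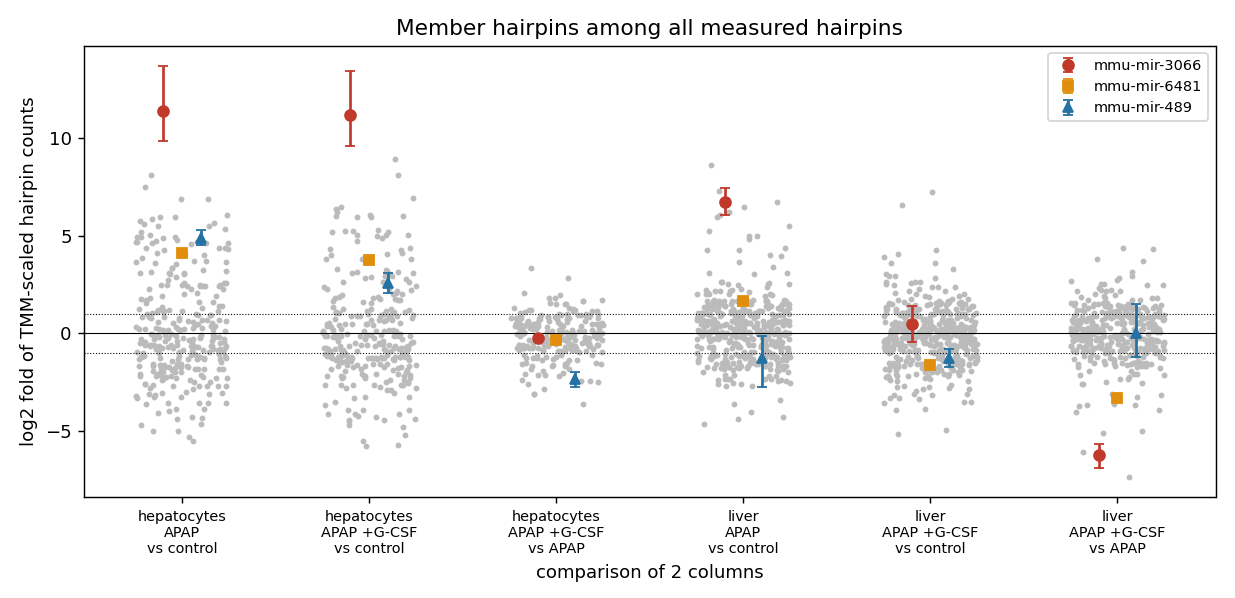
log2 fold of TMM-scaled hairpin counts in the 6 comparisons of 2 columns, with mir-3066 (red circles), mir-6481 (orange squares) and mir-489 (blue triangles) with exact 95% intervals and every other measured hairpin in grey; dotted lines mark the 2-fold limit. mir-3066 is the highest point of both hepatocyte comparisons with control and lies near the bottom where G-CSF was added to acetaminophen in liver.

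Liver given acetaminophen plus G-CSF did not show the mir-3066 level of acetaminophen alone. Against control, mir-3066 was 1.39-fold higher (0.741 to 2.64) and not called, with 25 and 20 counts. mir-6481 was 3.12-fold lower (2.90 to 3.35) and mir-489 2.40-fold lower (1.76 to 3.31), 2 of 3 called lower beside 22.2% of hairpins (18.3% were called higher). Against acetaminophen alone, mir-3066 was 75.8-fold lower (49.9 to 120) and ranked 379 of 380, and mir-6481 was 9.82-fold lower (8.98 to 10.7). mir-489 had a ratio of 1.01 (0.436 to 2.86). The 2 lower calls stand beside 13.9% of all measured hairpins called lower and 17.4% called higher, and both use the acetaminophen liver column. With mature-table sizes the log2 values were -4.47 for mir-3066, -1.52 for mir-6481 and 1.78 for mir-489, the last then called higher.

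**Figure D3:**
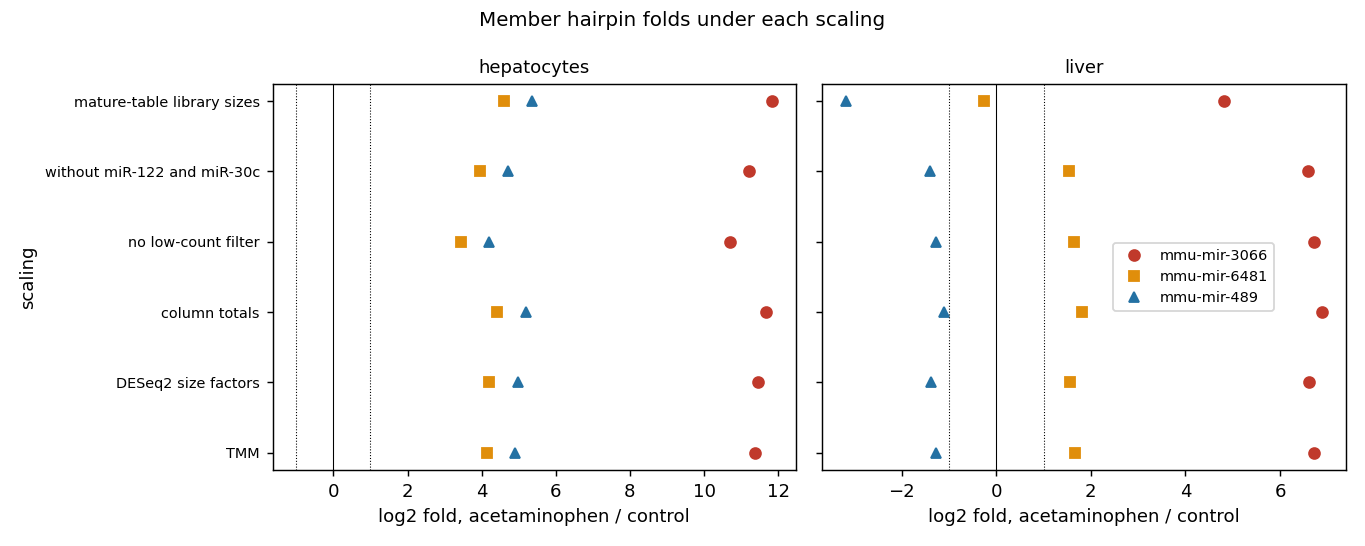
log2 fold of acetaminophen over control (horizontal axis) for mir-3066, mir-6481 and mir-489 under TMM and 5 other scalings (vertical axis), in hepatocytes and liver; the solid line marks equality and the dotted lines the 2-fold limit. In hepatocytes all points lie on the higher side, and in liver mir-6481 crosses to -0.25 under mature-table library sizes.

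Mature miRNAs were a second readout of the same libraries, and they separated mir-489 from the others. Both arms of miR-3066 and the single arm of miR-6481 were at 0 in all 12 columns. In acetaminophen hepatocytes, with 5330 mature counts, a count of 0 allows up to 56.3 per 100000 mature counts. The hairpins stood there at 1166 and 5942 per 100000 hairpin counts (2096 and 10681 counts). Of the 35 hairpins with at least 1000 counts in that column and a mature row of the same name, 7 (20%) had no mature count, among them mir-3066 and mir-6481. In untreated hepatocytes it was 4 of 93 (4.30%) and in untreated liver 6 of 120 (5%), both including mir-6481. Acetaminophen liver had 3 of 28 (10.7%), with neither hairpin among them. Mature totals differed as well, at 26741, 49330 and 19695 counts in that order, and a deeper column leaves fewer counts of 0. mir-3066 reached 1000 counts only in the treated hepatocytes, for which it was chosen.

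miR-489-3p, the arm that was counted, had 29, 56 and 19 counts in hepatocytes (control, acetaminophen, acetaminophen plus G-CSF) and 70, 12 and 34 in liver. Per 100000 mature counts these levels were 108 (75.5 to 156), 1051 (810 to 1362) and 427 (274 to 666) in hepatocytes, and 142 (112 to 179), 60.9 (34.9 to 106) and 77.8 (55.7 to 109) in liver. The treated hepatocytes were high, and the 4 other columns overlapped from one to the next. The opposite arm, miR-489-5p, had 1, 2 and 1.5 counts in the liver columns, 0 in hepatocytes and 1 in control hepatocyte exosomes.

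The hepatocyte values of miR-489-3p, which was chosen with the hairpins, are likewise a description. It was 10.2-fold higher with acetaminophen than in control (6.38 to 16.5), 6th of 100 mature miRNAs of which 26% were called higher and 27% lower. That interval does not reach the 29.9-fold of its hairpin. With G-CSF added it was 4.41-fold higher than control (2.34 to 8.13), where 23% of all were called higher and 29% lower. Against acetaminophen alone, the column used in the choice, it was 2.31-fold lower (1.35 to 4.11). There 17% were called lower and 10.6% higher. In liver it was 2.08-fold lower with acetaminophen (1.12 to 4.22), where 27.3% were called lower and 23% higher. After both agents it was 2.03-fold lower than control (1.33 to 3.16), where 12.8% were called lower and 15.7% higher. The ratio of both agents to acetaminophen alone was 1.03 (0.518 to 2.18) and not called, where 12.9% were called lower and 17.2% higher. Both liver values against control sit at the 2-fold limit and lost their calls under other scalings. The mature and hairpin counts come from the same libraries and are not separate samples.

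Relative to its arms, mir-489 had few hairpin counts. It held 2.12, 8.69 and 3.58 hairpin counts for each arm count in the hepatocyte columns, against 31.4, 33.7 and 31.3 over all entries. In liver the values were 2.14, 0.429 and 1.61, against 26.5, 5.65 and 25.1 over all entries.

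**Figure D4:**
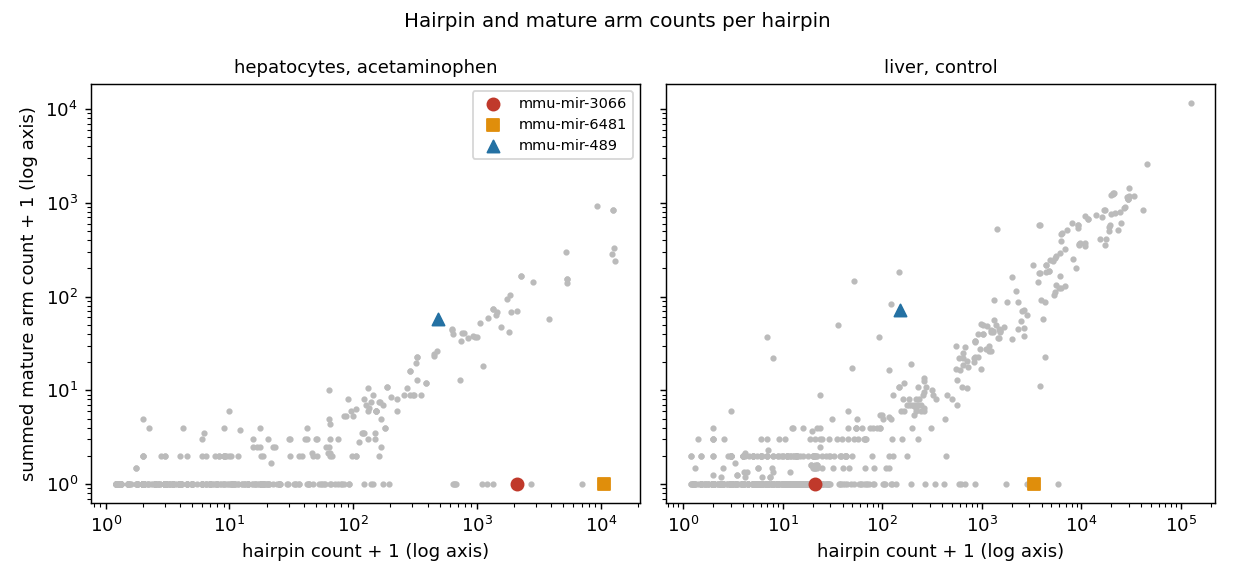
Hairpin count + 1 (horizontal, log axis) against the summed count of its mature arms + 1 (vertical, log axis) for each hairpin with a mature row of the same name, in acetaminophen hepatocytes and in untreated liver. mir-489 lies at or above the diagonal band (486.5 hairpin and 56 arm counts in acetaminophen hepatocytes), while mir-3066 and mir-6481 lie on the floor with 0 arm counts.

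The neighbour of mir-489 in the Calcr gene did not share its counts in hepatocytes and liver. In control hepatocyte exosomes both hairpins had 1 count, and in the other exosome columns both were at 0. mir-653 had 1 count in untreated hepatocytes, 0 in both treated hepatocyte columns, 0 in untreated and acetaminophen liver and 1 in liver with G-CSF added, and both of its mature arms were at 0. It was not measured in any of the 6 comparisons. Of 4 hairpins linked to satellite cell quiescence in mouse (mir-489, mir-31, mir-195a and mir-497), mir-489 and mir-497 were higher in acetaminophen hepatocytes and mir-31 was lower. Of all hairpins measured there, 30.6% were called higher and 31.3% lower. mir-497 had 17 against 7 counts (log2 3.21), mir-31 had 288.5 against 17448.9 (log2 -3.99), and mir-195a was at -0.80 and not called. In acetaminophen liver, mir-489 and mir-31 (log2 -2.33) were lower and the other members were not called. Of all hairpins measured in that comparison, 18.9% were called lower and 16.9% higher. Without mir-489, which was chosen for its count in acetaminophen hepatocytes, the median log2 fold of the other 3 was -0.80 in hepatocytes and -0.81 in liver, beside -0.24 and 0.17 for all hairpins measured.

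Markers of other cells moved in the hepatocyte columns as well. Of 6 stellate and mesenchymal hairpins, 6 were higher with acetaminophen, where 30.6% of all hairpins measured were. Among them mir-199a-1, mir-199a-2 and mir-199b had nearly the same counts (15.6, 14.6 and 16.6 against 5.95, 6.95 and 7.95). mir-143 was called on 8 against 9.5 counts. After both agents 1 of 3 measured was called higher than control, beside 27.3% of all hairpins measured. The summed level of the 6 was 13.9 per 100000 in control, 125 after the drug alone and 58.5 after both agents. The 6 leukocyte hairpins summed to 71.4, 986 and 704, with 3 of 5 measured members higher with acetaminophen. That sum was mostly mir-155, with 1571.5 of 1772 counts after the drug alone and 901.5 of 981.5 after both agents. With acetaminophen mir-342 and mir-146a were also called higher, and mir-142 (log2 0.27) and mir-223 (0.93) were not called. The 2 endothelial hairpins summed to 262, 981 and 691, with 1 of 2 higher. mir-126b, of the endothelial pair, was at 0 with acetaminophen. Striated muscle hairpins summed to 0.549, 8.90 and 9.76, and 7 of 9 were at 0 in each of these columns. Erythroid hairpins (3 in the table) summed to 1.07, 5.29 and 2.15, with 1 at 0 with acetaminophen. The 8 hepatocyte hairpins summed to 15296, 22353 and 12052. In liver the erythroid sum was 166 in control, 5258 after the drug alone and 994 after both agents, with 3 of 3 higher with acetaminophen, where 16.9% of all hairpins measured were. Also in that order, the liver sums were 1704, 1317 and 1344 for leukocyte, 2306, 2195 and 1432 for endothelial, 2911, 2004 and 2712 for stellate, and 4.64, 18.0 and 9.06 for muscle hairpins. Hepatocyte hairpins summed to 16764, 20363 and 10222 in liver, with mir-122 at 17327 of 22667 counts after the drug alone. The leukocyte sum in control liver was mostly mir-342, with 17205 of 22283 counts, which was lower with acetaminophen (log2 -2.55). In the same comparison mir-142 was 5.55-fold higher and mir-223 4.88-fold higher, and with mature-table library sizes 0 leukocyte hairpins and 3 of 3 erythroid hairpins were called higher there. The part of these cells in the values of the 3 hairpins was not tested.

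The hairpins most like each member across the 6 hepatocyte and liver columns were ranked by Pearson correlation of log2(CPM + 1), with CPM from the column totals, among 241 hairpins with at least 100 counts in a column. For mir-3066 they were mir-6538 (r = 0.99), mir-6239 (0.97) and mir-615 (0.97). mir-615 had 2, 143 and 183 counts in hepatocytes and 18, 154 and 9 in liver, so that its high columns were the same 3. For mir-6481 they were mir-380 (0.98), mir-155 (0.98), a miRNA known from immune activation, and mir-1948 (0.97). mir-380 had 1007, 3843 and 3067 counts in hepatocytes and 2643, 456 and 353 in liver. For mir-489 they were mir-878 (0.98), mir-130a (0.90) and mir-378b (0.90), and mir-878 had 152.2, 678.5 and 196.5 counts in hepatocytes and 267.6, 8 and 80 in liver. The points are 6 columns that share 2 materials and differ in depth, and they include hepatocyte columns used in the choice. Each r given is among the highest computed for its member, which favours high values. With a rank correlation 0 of the 3 nearest to mir-3066 were kept.

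Exosome columns held few counts of the 3 hairpins. mir-3066 had 1 count in control serum exosomes, of 181243, and 0 in the other 5 exosome columns. mir-6481 had 3, 1 and 2 counts in serum exosomes and 2, 2 and 0 in hepatocyte exosomes. The serum columns held 181243, 460 and 4026 hairpin counts. Per 100000, mir-6481 was there at 1.66 (0.563 to 4.87), 217 (38.4 to 1221) and 49.7 (13.6 to 181). Both treated intervals lie above that of control but rest on 1 and 2 counts. mir-489 had 1 count in control hepatocyte exosomes and 0 in the other exosome columns. With 167 and 173 hairpin counts in the treated hepatocyte exosomes, a count of 0 allows up to 1793 and 1735 per 100000, above the 1166 and 910 per 100000 of mir-3066 in the treated cells. The counts of 0 therefore do not leave out a level like that of the cells. For mir-6481, the count of 0 in hepatocyte exosomes after both agents allows up to 1735 per 100000, below the 4237 of the cells. The 2 counts of mir-6481 in acetaminophen hepatocyte exosomes correspond to 1195 per 100000 (329 to 4261), which overlaps 220 (60.2 to 797) in control.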

How the data were processed

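The authors deposited estimated counts (expected counts) per hairpin and per mature miRNA, not scaled to depth, in 12 columns per table. Column names carry no instrument, so the libraries of both instruments are assumed to be combined in each column. The aligner, annotation release and build were not given in the sources used here. Groups follow the treatment characteristic. For the treated serum exosomes, titles and column names give the opposite G-CSF assignment. The members and lists were chosen with earlier results of these data known.

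Counts were rounded, and TMM factors (edgeR 4.0.16) were computed per material on rows with at least 10 counts in 1 of 3 columns. Ratios carry exact conditional (Clopper-Pearson) 95% intervals. Rounded counts of 0 were set to 3 before a fold was taken. No test between conditions was possible with 1 column each. Alternatives were DESeq2 1.42.0 size factors, column totals, no filter, leaving out miR-122 and miR-30c, a minimum of 50 counts, and, added after seeing the data, library sizes of the mature table. Named were the members, their mature rows, mir-653 and the 3 hairpins most like each member. mir-615, mir-1224 and mir-217 were also named for their ranks, after their values were seen, as were the list members. Hairpins listed as mir-142a, mir-486a and mir-497a were matched to the table's mir-142, mir-486 and mir-497. Call rule and scaling were tried on simulated data. Those counts varied by counting error only, with as many hairpins raised as lowered, so they do not bear on variation between libraries.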

Additional observations from a re-analysis of the deposited data

Results flagged for a closer look

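Effects under the same contrast went in opposite directions in hepatocytes and liver for 5 values, and the difference itself was not tested because each rests on 1 column per condition. For hairpin mir-489 the log2 fold against control was 4.90 in hepatocytes and -1.27 in liver with acetaminophen (difference 6.17), and 2.56 and -1.26 with G-CSF added (difference 3.82). For miR-489-3p the values were 3.35 and -1.06 with acetaminophen (difference 4.40), and 2.14 and -1.02 with G-CSF added (difference 3.16). For hairpin mir-6481 with acetaminophen plus G-CSF they were 3.77 and -1.64 (difference 5.41). The hepatocyte side is the one for which the hairpins were chosen, and doses in culture and in mice are not matched.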

How the results depend on the processing

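Of 24 log2 folds (3 hairpins and miR-489-3p in 6 comparisons), 19 kept their call under every alternative scaling run. The minimum of 50 counts could not change these calls, because it was applied only to folds with at least 50 counts in 1 column. In hepatocytes, both agents against control, miR-489-3p was called higher on 19 and 29 counts, which fall under that minimum. Among the called values, mir-6481 in liver, acetaminophen against control, turned direction, from 1.66 to -0.25 with mature-table library sizes. In liver with G-CSF against acetaminophen, values near 0 that were not called also changed sign, mir-489 from 0.01 to -0.05 with column totals and miR-489-3p from 0.04 to -0.16 with DESeq2 size factors and -0.18 without miR-122 and miR-30c. The other calls that changed were of mir-489 and miR-489-3p in liver. For mir-489 they were acetaminophen against control (-1.11 with column totals) and G-CSF against acetaminophen (0.01 to 1.78 with mature-table sizes). miR-489-3p lost its call with acetaminophen against control (-0.89 with DESeq2 size factors, -0.82 without miR-122 and miR-30c). With G-CSF against control it was at -0.87 with column totals, and just short of the 2-fold limit with no filter and without miR-122 and miR-30c. In hepatocytes, acetaminophen against control ranged from 10.69 to 11.84 for mir-3066, 3.43 to 4.59 for mir-6481, 4.21 to 5.37 for mir-489 and 2.78 to 3.72 for miR-489-3p. A minimum of 50 counts, which leaves fewer hairpins to call, gave 53 of 94 higher calls in hepatocytes with acetaminophen, 47 of 80 with G-CSF against control, and 11 of 20 higher and 17 of 33 lower with G-CSF against acetaminophen. In liver it gave 43 of 74 higher with acetaminophen, 54 of 85 higher and 38 of 103 lower with G-CSF against control, and 33 of 53 lower with G-CSF against acetaminophen. Mature-table sizes gave 23 higher and 265 lower in liver with acetaminophen (74 and 83 with TMM), and 251 higher and 16 lower with G-CSF against acetaminophen (66 and 53), the cause of which was not tested. The share of higher among all calls moved by over 10 percentage points under some scalings: in hepatocytes with acetaminophen from 49.5% to 36.0% with no filter and 61.8% with mature-table sizes, with G-CSF against control from 46.2% to 33.3% and 58.2%, and with G-CSF against acetaminophen from 37.7% to 27.3% with column totals and 26.8% with mature-table sizes. In liver mature-table sizes moved it from 47.1% to 7.99% with acetaminophen and from 55.5% to 94.0% with G-CSF against acetaminophen. In hepatocytes with acetaminophen, the median fold of all hairpins shifted by -0.69 log2 with no filter and by 0.29 with column totals. Exchanging the treated serum columns exchanges 1 and 2 counts of mir-6481. Of the 3 hairpins most like each member, a minimum of 500 counts kept 1 for mir-3066 and 3 for the others, and rank correlation kept 0, 2 and 1 for mir-3066, mir-6481 and mir-489. No paired analysis was possible because the columns carry no replicate. Depth limits the treated exosome columns, at 167 to 4026 hairpin counts.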
